A study of Mus musculus with 4 samples.

Results

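Internal-exon peaks are the m6A peaks that the authors annotated to an exon lying between the first and the last exon of a transcript. They were taken from both deposited peak lists by the annotation alone, as exon k of n with k of at least 2 and below n. They numbered 7030 of 33556 peaks in the CCI list and 6862 of 34406 in the sham list. Each peak consists of 1 or more exonic blocks, so that a peak with 1 block lies in a single exon and a peak with several blocks crosses splice junctions.

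The study profiled m6A in the spinal cord 7 days after nerve surgery, in C57BL/6J mice that were 6 to 8 weeks old, to compare neuropathic with control animals. In the chronic constriction injury (CCI) group silk ligatures were tied loosely around the sciatic nerve at 4 sites, and the sham group had the same operation without ligature. Poly(A) RNA was fragmented, and fragments bound by an m6A antibody (the IP library) were set against the RNA before capture (the input library). Each group had 1 IP and 1 input library, and the number of animals behind a library is not given in the sources used here. The files hold no read counts, so the depth is unknown. Without replicates, differences of CCI from sham are given as values of these libraries, with no p-value. The 95% Wilson intervals below cover counting error only.

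A methyl group on adenosine of mRNA, m6A is read by proteins with a YTH domain. METTL3 is the catalytic subunit of the nuclear complex that writes it, in which VIRMA and ZC3H13 also take part, and the demethylase FTO can take it off. It occurs mostly within a short sequence context with the core GGAC. The mark is best known around stop codons and in 3′-UTRs, and also in long internal exons. Exon junction complexes are known to keep the methyltransferase from RNA close to splice junctions, which leaves the inside of long exons more accessible.

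The lists held peaks on transcripts of the cell types of spinal cord. All 7 neuronal, 5 oligodendrocyte, 5 astrocyte and 5 microglial marker genes had a peak of some class in each list. So had 4 of 5 Hox genes of position along the spinal cord, all but *Hoxc9*. Of 5 genes of muscle, liver or dorsal root ganglion, 0 had a peak in the CCI list and 1 in the sham list, the sensory neuron channel gene *Scn10a*. Internal-exon peaks were present in both lists on 3 of the 7 neuronal, 3 of the 5 oligodendrocyte, 2 of the 5 microglial, 1 of the 5 astrocyte and 1 of the 5 Hox genes. Of all genes with a peak, 29.9% in CCI and 29.0% in sham had an internal-exon peak. A peak shows that a transcript was enriched by the antibody and does not give its level.

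Internal-exon peaks made up 21.0% of the CCI list (95% interval 20.5 to 21.4%) and 19.9% of the sham list (19.5 to 20.4%). The 3′-UTR class was larger, with 49.8% and 48.9%. Internal-exon peaks lay in 3773 genes in CCI and 3811 in sham, and 3246 genes had one in both lists, which is 86.0% of the CCI genes and 85.2% of the sham genes. Most of these genes had a single such peak (57.6% in CCI and 59.7% in sham). At least 5 were found in 199 genes in CCI and 192 in sham.

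The fold enrichment, the authors' ratio of IP over input, was lower in internal exons than in the other classes. Its median was 3.98 in CCI (middle 50% of peaks 2.44 to 7.81) and 3.95 in sham (2.40 to 7.75), whereas 3′-UTR peaks had 5.92 and 5.81. Last-exon peaks had 5.97 and 5.81, and 5′-UTR peaks 8.51 and 8.21. A fold enrichment of at least 10 was reached by 18.1% of internal-exon peaks in CCI and 18.2% in sham, against 30.5% and 30.9% of all peaks. The order of these medians was alike in both lists, although the middle ranges of the classes overlapped.

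Many genes carried both an internal-exon and a 3′-UTR peak. Of the genes with an internal-exon peak, 70.6% in CCI and 70.3% in sham also had a 3′-UTR peak, close to the 73.6% and 72.6% among all genes with a peak. Within these genes the strongest internal-exon peak exceeded the strongest 3′-UTR peak in 855 of 2662 genes in CCI (32.1%) and in 880 of 2680 in sham (32.8%). The median log2 ratio of internal exon over 3′-UTR was -0.86 in CCI and -0.82 in sham. In 721 genes in CCI and 717 in sham, every peak was an internal-exon peak.

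Nearly as many internal-exon peaks crossed a splice junction as did not. Several blocks were present in 3370 CCI peaks (47.9%, interval 46.8 to 49.1%) and in 3288 sham peaks (47.9%, 46.7 to 49.1%). The same share was 15.9% and 17.0% for 3′-UTR peaks, 25.0% and 26.8% for first-exon peaks, 36.2% and 37.1% for 5′-UTR peaks, and 4.13% and 3.91% for last-exon peaks. Exactly 2 blocks were the commonest form, with 2208 peaks in CCI and 2142 in sham, and 3 blocks followed with 770 and 718. The exon number of a peak with several blocks names only 1 of the exons it touches.

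Peaks with 1 block and with several blocks differed little in strength. The median fold enrichment was 4.12 for 1 block (middle 50% 2.50 to 8.04) and 3.795 for several blocks (2.38 to 7.53) in CCI, and 4.18 (2.48 to 7.73) against 3.76 (2.29 to 7.78) in sham. The log2 ratio of the medians was 0.12 in CCI and 0.15 in sham, far inside the spread of single peaks. The 849 CCI genes and 804 sham genes that held both kinds were compared by another measure, the strongest peak of each kind, which leaned the other way. Number and length of peaks were not matched between the kinds, so this does not show a reversal of the medians within genes. There the strongest 1-block peak exceeded the strongest several-block peak in 45.7% of genes in CCI (42.4 to 49.1%) and 47.3% in sham (43.8 to 50.7%), and the second interval includes an even split.

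Peak length went with strength far more than the split into 1 block and several blocks did. Among several-block peaks the median fold enrichment rose with block number. It went from 3.29 for 2 blocks to 8.2 for 6 or more in CCI, and from 3.315 to 8.46 in sham. Their median length rose as well, from 181 to 630 bp in CCI and from 209 to 661 bp in sham. In CCI, 1-block peaks of up to 100 bp had a median fold enrichment of 2.15, those over 200 and up to 300 bp 4.82, and those over 1000 bp 13.6. Several-block peaks of the same bands had 1.96, 4.24 and 16.4. In sham the medians were 2.155, 4.49 and 12.3 for 1 block and 1.80, 3.79 and 15.6 for several. In each band up to 500 bp the 1-block median was the higher one in both lists, and in both bands above 500 bp the several-block median was the higher one. Peaks with several blocks lay in transcripts with more exons, with a median of 17 exons against 13 in both lists.

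The genomic span of several-block peaks was much longer than their exonic length. They spanned a median of 2096.5 bp on the genome in CCI and 2116.5 bp in sham, over 211 and 240 bp of exonic sequence. The longest block held a median of 68.2% of the exonic bases in CCI and 68.3% in sham. Peaks whose longest block exceeded 300 bp had a median fold enrichment of 10.4 in CCI and 10.7 in sham, and those whose longest block had up to 150 bp had 2.61 and 2.505. Total length differed between these groups too. Among several-block peaks of over 200 and up to 300 bp in all, a longest block over 150 bp went with a median of 4.56 in CCI and 4.13 in sham, against 3.96 and 3.39 for a shorter one.

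In peaks with at least 3 blocks the inner blocks lie between 2 junctions within the peak. These 1829 inner blocks in CCI and 1944 in sham had a median length of 108 bp in both lists, and 5.41% and 5.66% of them exceeded 300 bp. The 1-block peaks lay in 2846 exons in CCI and 2786 in sham, and in 34.6% and 36.1% of these exons they covered a stretch of more than 300 bp from the first to the last peak. Such a stretch is a lower limit for the length of the exon. Lengths of the exons themselves were not analysed here.

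Some single exons held rows of separate peaks. At least 2 peaks with 1 block were found in 483 exons in CCI and 462 in sham, and at least 3 in 174 and 164. The following exons were chosen after their values were seen. Exon 22 of 32 of *Stard9*, a kinesin of mitotic centrosomes, held 9 peaks over 8520 bp in CCI and 8 over 8550 bp in sham (chr2:120696495-120705044). Exon 3 of 13 of *Zfp462*, a zinc-finger protein gene, held 11 in CCI and 8 in sham. Exon 10 of 27 of *Bod1l* held 7 and 6, and exon 4 of 9 of *Hivep1*, a zinc-finger transcription factor gene, held 9 and 8.

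Along the transcript, internal-exon peaks were found in every part. The exon number was scaled between the first and the last exon and divided into 5 equal parts. The middle part held 22.3% of CCI and 22.6% of sham peaks, and the first and last parts held 15.8% and 16.3% in CCI and 16.2% and 15.8% in sham. The first and the last exon are outside the class, so the end parts hold fewer eligible exons by construction. In transcripts with few exons no internal exon falls in them. The shares were not set against the exons available, and they do not show where peaks concentrate. Median fold enrichment fell from part to part in CCI, with 4.135, 4.1, 4.0, 3.91 and 3.56. In sham it was 4.21, 4.29, 3.925, 3.83 and 3.575. Exon 2 was the host of 1149 peaks in CCI and 1173 in sham. These exon 2 peaks had a median of 4.62 and 4.69, and a several-block share of 32.6% and 31.1%, below that of all internal-exon peaks. The last exon but 1 had like values, with a several-block share of 37.6% in CCI and 36.9% in sham. Its medians of 4.34 in CCI and 4.32 in sham lay above those of the last part.

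Most internal-exon peaks overlapped a peak of the other list. A partner with at least 1 shared exonic bp was found for 6049 of 7030 CCI peaks (86.0%, 85.2 to 86.8%) and 5745 of 6862 sham peaks (83.7%, 82.8 to 84.6%), against 87.7% and 83.9% of all peaks. In sham the share was 80.7% for 1 block and 87.0% for several blocks, and in CCI it was 85.1% and 87.0%. Peaks without a partner were shorter and weaker. Their median length was 120 bp in both lists and their median fold enrichment 2.52 in CCI and 2.71 in sham, against 4.33 and 4.29 for peaks with a partner.

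Where each peak was the best partner of the other, 5350 pairs were internal-exon peaks in both lists. Their log2 fold enrichments had a Pearson correlation of 0.87 across pairs, which share their list's IP and input library and are not independent. The block kind was the same for most of these pairs, with 2493 pairs of 1 block and 2418 of several blocks in both. In 257 pairs the peak had 1 block in CCI and several in sham, and in 182 the reverse. Of the CCI peaks with a best partner, 95.3% had one annotated as internal exon, 1.60% as 3′-UTR and 1.43% as 5′-UTR.

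Fold enrichment of the pairs was close to equal in CCI and sham. The log2 ratio of CCI over sham had a median of 0.02 and a middle 50% of -0.31 to 0.38, and it was 0.03 over all 27380 pairs. The ratio was below 0 in 48.1% of the internal-exon pairs. At least 2-fold higher in CCI were 319 of 5350 pairs (5.96%, 5.36 to 6.63%), and 8.59% of all pairs. At least 2-fold lower were 226 (4.22%, 3.72 to 4.80%), and 7.25% of all pairs. Over the 929 pairs with the same blocks in both lists, 3.98% were higher and 1.72% lower. Over all internal-exon pairs, both shares were thus below those of all pairs. The shares also went with the level of enrichment. In the 25% of internal-exon pairs with the highest mean log2 enrichment, 11.4% were higher and 8.52% lower, and in the 25% with the lowest mean 0.598% and 0.149%. For 1 block in both lists the shares were 7.22% and 5.29%, and for several blocks 4.67% and 2.94%.

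Coordinates are in GRCm38, the build in the processing notes, and are those of the CCI peak unless said otherwise. The cytoskeletal genes were listed for long exons, but the lengths of their exons were not checked. Not all members showed long blocks, and in *Mapt* the longest block in CCI had 229 bp. The group had internal-exon peaks in 11 of 11 genes in both lists, 82 peaks in CCI and 83 in sham. Several blocks were present in 30.5% and 31.3% of these peaks. Of all internal-exon peaks, 47.9% in CCI and 47.9% in sham had several blocks, a larger share than in this group. Among all genes with a peak, the share of genes with an internal-exon peak was 29.9% in CCI and 29.0% in sham. No test of any of the gene lists against these shares was made. The median fold enrichment of the cytoskeletal group was 3.06 in CCI and 2.71 in sham, below that of all internal-exon peaks, and the peaks named here are among its strongest. *Map1a*, a microtubule-associated protein gene of neurons, had a 1-block peak of 3027 bp in exon 5 of 7 with a fold enrichment of 23.9 in CCI (chr2:121300187-121303213), and its partner in sham had 19.4 over 3447 bp. *Map1b*, of the same family, had 47.9 in CCI (chr13:99433802-99434521) and 29.4 in sham, also in exon 5 of 7. Exon 37 of 46 of *Ank2*, which encodes ankyrin-B, a linker of membrane proteins to spectrin, held peaks of 20.1 and 17.1 at the same borders (chr3:126945767-126946847). The spectrin gene *Sptbn1* was weaker, with at most 4.01 in CCI and 3.33 in sham. Over 68 pairs of this group CCI over sham had a median log2 ratio of 0.05, and 25 pairs were lower in CCI (36.8%, against 48.1% of all internal-exon pairs). At least 2-fold higher in CCI were 4 pairs (5.88%) and at least 2-fold lower 1 (1.47%), against 5.96% and 4.22% of all internal-exon pairs. *Dst* held 2 of the higher pairs and also the lower pair (9.59 in CCI and 54.6 in sham). A higher *Dst* pair, with 16.7 in CCI and 5.11 in sham, shared only 1 bp. Without *Dst*, left out after seeing the data, 2 of 54 pairs were higher (3.70%).

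Of 20 chromatin genes, 19 had internal-exon peaks in each list, with 107 peaks in CCI and 101 in sham and a median fold enrichment of 5.48 and 5.65. *Kmt2d*, a histone H3 lysine 4 methyltransferase gene, had 42.8 in exon 32 of 55 in CCI (chr15:98852493-98852972) and 32.9 in sham. Its strongest peak had 469 over 2 blocks in CCI (chr15:98863206-98864361) and 134 over 1 block in sham. *Ncor1*, a corepressor of nuclear receptors, had a peak of 3 blocks with identical borders in both lists (chr11:62383261-62389777) and a fold enrichment of 51.7 and 47.3. *Setd2*, which methylates histone H3 lysine 36, had 21.9 in exon 3 of 21 in CCI (chr9:110550811-110551440) and 14.5 in sham, and another pair in the same exon had 7.75 (chr9:110548445-110548774) and 14.7. *Kmt2a*, of the same family as *Kmt2d*, had a 4-block peak of 26.3 in CCI (chr9:44841611-44843415) and 32.0 in sham. *Mdc1*, a mediator of the DNA damage response, had 15.4 in exon 5 of 16 (chr17:35847374-35848151) and 27.5. Several blocks made up 49.5% of the group's peaks in CCI and 38.6% in sham. The median log2 ratio over 86 pairs was 0.17 and that of all internal-exon pairs 0.02, with 30 pairs lower in CCI (34.9%, against 48.1%). At least 2-fold higher in CCI were 3 pairs (3.49%) and at least 2-fold lower 0, against 5.96% and 4.22% of all internal-exon pairs.

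All 24 synaptic receptor and channel genes had a peak of some class in each list, and 13 in each list (54.2%) had an internal-exon peak, 12 of them in both, with 25 such peaks per list and medians of 2.80 in CCI and 3.26 in sham. The calcium channel gene *Cacna1a* was strong in both lists, with 118 in CCI (5 blocks, chr8:84556787-84569907) and 115 in sham (3 blocks). *Grm5*, a metabotropic glutamate receptor gene, had 8.82 (chr7:88075090-88130173) and 9.30. *Cacna1e*, another calcium channel gene, had 327 over 421 bp in CCI (chr1:154471586-154472414) and 24.8 over 1140 bp in sham, so that the values were measured over different borders. Over the 17 pairs of this group the median log2 ratio was -0.16, with 11 pairs lower in CCI (64.7%, against 48.1% of all internal-exon pairs). At least 2-fold higher was 1 pair (5.88%, against 5.96%) and at least 2-fold lower 0 (against 4.22%).

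Adhesion and matrix genes had internal-exon peaks in 16 of 24 genes in CCI and 15 in sham, with 63 peaks in each list and 27.0% with several blocks in both. The giant protocadherin genes *Fat1*, *Fat3* and *Fat4* had only 1-block peaks, 13, 5 and 10 in CCI and 15, 5 and 10 in sham. In *Nfasc*, the neurofascin gene of nodes of Ranvier, a 5-block peak of 420 bp had the same borders in both lists (chr1:132584400-132595492) with 24.2 and 20.8. *Nlgn1*, a postsynaptic adhesion gene, had 21.4 in exon 7 of 8 in CCI (chr3:25436025-25436624) and 11.3 in sham. *Celsr3*, a cadherin gene that acts in axon guidance, had 20.7 in CCI and 36.7 in sham over identical borders (chr9:108847690-108849468). *Vcan*, encoding the proteoglycan versican, had 26.6 over 211 bp in exon 8 of 15 in CCI (chr13:89690261-89690471) and 4.26 over 151 bp in sham. Its other pairs were closer, with 4.43 and 3.59, 2.90 and 2.40, and 2.61 and 2.06. Over 52 pairs the median log2 ratio was 0.03, with 25 pairs lower in CCI (48.1%, the share of all internal-exon pairs). At least 2-fold higher in CCI were 6 pairs (11.5%) and at least 2-fold lower 2 (3.85%), against 5.96% and 4.22% of all internal-exon pairs. Of the 6 higher pairs, 4 belonged to *Fat4*, as did a lower pair with 6.17 in CCI and 18.6 in sham. Without that gene, left out after seeing the data, 2 of 43 were higher (4.65%).

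Genes of the m6A machinery had internal-exon peaks in 5 of the 12 genes with a peak in CCI (41.7%) and 6 of 13 in sham (46.2%), out of 18 genes in the list. *Virma*, a subunit of the methyltransferase complex, had 14.7 in exon 8 of 13 in CCI (chr4:11513233-11513532) and 8.07 in sham. *Zc3h13*, another subunit, had a peak of 4 blocks with 321 in CCI (chr14:75324569-75330941) and of 7 blocks with 201 in sham. Its other pair had the largest ratio of the group and went the other way, with 3.30 in CCI (chr14:75315941-75321757) and 18.1 in sham, but over 299 bp in CCI and 717 bp in sham. *Ythdf1*, a reader, had 21.5 in exon 4 of 5 (chr2:180911217-180911635) and 15.1, and *Ythdf2* had 5.74 (chr4:132204187-132204994) and 5.57. *Fto* had 2.76 over 3 blocks in CCI (chr8:91391542-91409795) and 3.20 over 1 block in sham. Over the 12 pairs of the group the median log2 ratio was 0.28, and 3 pairs were lower in CCI (25%, against 48.1% of all internal-exon pairs). At least 2-fold higher was 1 pair and at least 2-fold lower 1 (8.33% each, against 5.96% and 4.22%).

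The 5 genes with the most internal-exon peaks, CCI and sham summed, encode very large proteins. *Dst*, a spectraplakin that links cytoskeletal filaments, had 22 peaks in CCI and 20 in sham, of which 5 in each list lay in exon 39 of 103. *Pclo*, a scaffold protein of the presynaptic active zone, had 18 in each list, and 16 of these had 1 block in both. *Fat1* had 13 and 15. *Zfhx4*, a zinc-finger homeobox transcription factor gene, also had 13 and 15, and *Kmt2d* had 14 and 13. Within *Dst* the fold enrichment ranged from 1.54 to 16.7 in CCI and from 1.29 to 54.6 in sham.

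The strongest paired peaks with 1 block were found in genes of several functions. *Rrbp1*, a ribosome-binding protein of the endoplasmic reticulum, had 796 in exon 2 of 24 in CCI (chr2:143988282-143989661) and 1270 in sham. *Inf2*, a formin that acts on actin, had 612 in exon 8 of 23 (chr12:112604162-112604729) and 615. Another formin, *Fmn1*, had 84.4 (chr2:113525365-113525904) and 210. *Grid2ip*, a scaffold that binds a glutamate receptor, had 188 in exon 13 of 22 (chr5:143382519-143382818) and 181. *Parp4* of the vault particle had 134 (chr14:56647429-56648238) and 124. *Zfhx4* had 171 in exon 10 of 11 (chr3:5400146-5400985) and 216, but over 840 bp in CCI and 330 bp in sham.

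The other 4 of these 10 were *Wdr66*, *Soga3*, *Sobp* and *9130401M01Rik*. Their values were 254 in CCI (chr5:123254255-123254705) and 338 in sham for *Wdr66*, and 100 over 957 bp (chr10:43021846-43022802) and 96.4 over 1764 bp for *Sobp*. *Soga3* had 102 (chr10:29146921-29147517) and 280, and *9130401M01Rik* had 90.7 (chr15:58026017-58026287) and 182. The input values behind these ratios are not among the columns.

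Among paired peaks with several blocks, *Enah*, an actin regulator of growth cones, had 889 in CCI (2 blocks, chr1:181919422-181922469) and 1120 in sham. *Kdm6b*, a histone H3 lysine 27 demethylase gene, had the same 4 blocks in both lists (chr11:69403578-69406286), with 1030 and 676. *Ccnk*, the cyclin partner of transcriptional kinases, had 407 (chr12:108199296-108202643) and 408. *Prr12* had 791 (chr7:45043436-45045909) and 296. *Setd1b*, a histone H3 lysine 4 methyltransferase gene, had 256 over 8 blocks (chr5:123151854-123162820) and 316 over 6.

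The strongest peaks without any partner reached about the same fold enrichment in both lists. In CCI they were *Arhgap26* with 30.2 (chr18:39307356-39357714), *Ehbp1*, an endocytic adaptor gene, with 26.1 (chr11:22101217-22110489), and *2310047D07Rik* with 24.0 (chr5:149236884-149237338). In sham they were *Col7a1*, the collagen of anchoring fibrils, with 29.1 (chr9:108967490-108967926), *Tmem267* with 29.1 (chr13:119492666-119492756), and *Rtn4rl2*, of the Nogo receptor family, with 27.9 (chr2:84880619-84880855). *Mmp24*, the gene the study is about and outside the rule for named genes, had a single internal-exon peak. It lay in exon 3 of 9 in the CCI list, with 2.06 over 61 bp (chr2:155798098-155798158), and had no partner in sham. Its longest peaks by exonic length lay in the 3′-UTR, where 2 peaks per list that overlap each other had 8.56 and 8.95 in CCI and 12.4 and 13.6 in sham. Another 3′-UTR peak had 4.07 in CCI and 3.86 in sham over identical borders (chr2:155816368-155816577). The remaining peaks were 1 in the last exon in CCI with 9.10 (chr2:155815712-155816040) and 1 of 2 blocks in the 3′-UTR in sham with 12.1 (chr2:155814134-155816070). Their ranges overlapped and each had a partner in the other list, so neither was particular to its list.

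Large ratios were looked for among pairs that overlapped by at least 50% of both peaks and had a false discovery rate below 0.01 in both lists. The 5 genes with the largest ratios toward CCI were *Clk2*, *Creb5*, *Lrrc7*, *Dvl3* and *Cdyl*. *Clk2*, a kinase of splicing factors, had 87.0 in CCI (chr3:89169397-89169666) and 6.20 in sham, a log2 ratio of 3.81. *Creb5*, a transcription factor gene, had 518 (chr6:53680948-53685400) and 52.5. *Lrrc7*, encoding densin of the postsynaptic density, had 54.2 (chr3:158161367-158161696) and 5.98. *Dvl3* of Wnt signalling had 46.4 and 5.23 over identical borders (chr16:20522449-20522868). *Cdyl*, a chromodomain protein gene, had 39.1 (chr13:35815985-35816492) and 4.94.

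Among the same pairs, the largest ratios toward sham were found in 5 other genes. *Col24a1*, a collagen gene, had 15.1 over 6 blocks in CCI (chr3:145459172-145474243) and 126 over 9 blocks in sham, a log2 ratio of -3.06. *Adamtsl3* had 3.95 (chr7:82574485-82574634) and 31.4, and *Epb41l1*, a membrane skeleton protein gene of neurons, had 4.75 (chr2:156508867-156521937) and 37.3. *Smn1*, which acts in the assembly of spliceosomal particles, had 11.8 and 75.5 over identical borders (chr13:100128261-100128499). *Agbl2*, a carboxypeptidase gene that acts on tubulin, had 4.46 (chr2:90801292-90801442) and 26.7. The log10 false discovery rates differed less than the ratios for some of these genes. They were -31.8 in CCI and -33.8 in sham for *Col24a1*, -31.7 and -37.1 for *Smn1*, and -5.57 and -5.75 for *Agbl2*. *Adamtsl3* had -3.47 and -7.0, and *Epb41l1* minus infinity in both lists. With 1 library of each kind per group, these ratios cannot be told apart from differences between libraries.

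The bases of a few 1-block peaks could be read, since they lie in the 300 base windows that RefSeq (GRCm38.p6) gives around gene starts. In CCI 19 and in sham 22 peaks overlapped such a window, often that of a gene on the other strand, and they are no sample of all 1-block peaks. GGAC occurred 9 times on the transcript strand and 17 times on the other strand in 2711 bases in CCI, and 15 and 17 times in 2748 bases in sham. All windows held 3.82 GGAC per 1000 bases on the gene strand. Thus GGAC was not more frequent on the transcript strand than on the other strand of these peaks. Of peaks with at least 100 readable bases, 5 of 13 in CCI held GGAC on the transcript strand and 9 on the other, and in sham 7 and 11 of 12. Over the readable bases shared by both lists, 3 of 8 peaks held GGAC on the transcript strand. *Bhlhb9* (5.41 in CCI and 12.8 in sham) and *Tab3* (5.27 and 10.3), next in strength to *Pi16*, held none in these bases. Only 136 bases of *Bhlhb9* and 196 of *Tab3* were readable, a part of each peak, and the rest was not searched. The fold enrichment is that of the whole peak. The sequences are shown on the transcript strand with GGAC in capitals, for the peak with the highest fold enrichment among those with at least 100 readable bases in both lists, and for 3 weaker ones with 1, 2 and 0 matches.

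*Pi16*, encoding a secreted peptidase inhibitor, had 16.0 in both lists in exon 4 of 5. The 273 bases at chr17:29326896-29327168 (+) held 1 GGAC, and 61.4% of all windows held it in as many bases. *Zfp212* had 3.96 in CCI and 2.67 in sham in exon 2 of 5 (chr6:47926567-47926715, +), where 40.9% of windows held it in as many bases. *Ank2* had 2.40 and 2.86 in exon 37 of 46 (chr3:126943487-126943636, -), with 41.1% of windows. *Cacna1c*, a calcium channel gene, had 2.27 and 3.26 in exon 46 of 47 (chr6:118595971-118596121, -), with 41.3% of windows.
Pi16: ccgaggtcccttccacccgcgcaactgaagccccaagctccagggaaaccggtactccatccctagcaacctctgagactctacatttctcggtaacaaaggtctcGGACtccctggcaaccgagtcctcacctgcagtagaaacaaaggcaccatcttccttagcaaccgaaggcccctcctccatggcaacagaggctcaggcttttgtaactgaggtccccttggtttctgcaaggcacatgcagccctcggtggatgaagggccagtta
Zfp212: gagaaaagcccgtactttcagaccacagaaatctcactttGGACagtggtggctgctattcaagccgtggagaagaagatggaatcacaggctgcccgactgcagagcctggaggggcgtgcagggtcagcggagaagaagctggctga
Ank2: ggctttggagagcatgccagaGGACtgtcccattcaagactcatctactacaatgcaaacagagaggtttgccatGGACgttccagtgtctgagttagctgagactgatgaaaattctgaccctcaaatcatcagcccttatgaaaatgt
Cacna1c: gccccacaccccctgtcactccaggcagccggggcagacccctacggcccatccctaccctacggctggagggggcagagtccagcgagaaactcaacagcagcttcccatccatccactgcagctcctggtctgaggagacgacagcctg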

How the data were processed

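MeRIP-seq peaks were taken from 1 list per group, which the authors called from 1 IP against 1 input library. Processing notes in the labels name fastp, HISAT2, HOMER, ChIPseeker and GRCm38, whereas the methods of the paper name Cutadapt, bowtie, MACS2 and ChIPseeker, and the columns bear exomePeak names. The deposited fold enrichment is a ratio of IP over input, and the authors' scaling of the libraries is not stated. Significance of IP against input, deposited as log10 values of which some are minus infinity, served as a score. The number of exonic blocks was used as deposited. The labels give reads of 150 bp, and the paper gives another length. The authors' table of differential peaks holds their own comparison of CCI with sham and was not used.

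The gene of a peak is that of its annotated exon, which differed from the gene given for the peak in 259 CCI and 281 sham peaks. For 103 and 120 peaks that gene had no name in the files. Pairs are mutual best partners by shared over joint exonic bases, with at least 1 shared bp, which was tested on simulated data. The rule for named genes takes the 10 strongest 1-block and 5 strongest several-block pairs by the lower of both values, the 5 genes with the most peaks over both lists, the 5 largest ratios each way with at least 50% overlap and a false discovery rate below 0.01 in both lists, the 3 strongest peaks per list without a partner, and members of fixed gene lists. Comparisons within genes that hold both block kinds, by longest block and by level of enrichment were added after the data were seen. Members and lists were chosen with earlier results of these data known. Python 3.11.15, numpy 2.4.6, pandas 2.3.3 and scipy 1.17.1 were used. The values of 1 gene of the fixed lists are not reported here.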

Additional observations from a re-analysis of the deposited data

How the results depend on the processing

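With a fold enrichment of at least 2, the internal-exon share was 19.7% in CCI and 18.5% in sham, and with overlapping peaks of a gene and class counted as 1 it was 21.7% and 20.6%. Without blocks under 10 bp, the several-block share was 44.3% and 44.5%. The log2 ratio of 1 block over several was 0.29 in sham for peaks of 100 to 200 bp. For peaks over 500 bp, chosen after seeing the data, it turned to -0.084 in CCI and -0.20 in sham, and the cause was not tested. With an overlap of 50% of both peaks, 72.0% of CCI and 73.1% of sham peaks had a partner, and with a fold enrichment of at least 2 in both lists 83.4% of CCI peaks had one. Over pairs with the same blocks, 3.98% were at least 2-fold higher and 1.72% lower in CCI. At 1.5-fold, over all 5350 internal-exon pairs, 16.0% were higher and 11.98% lower. A log2 ratio was taken as kept where it moved by less than 0.1. No paired analysis was possible because a group consists of a single IP with its input and no test was run. The share of all 1-block peaks with GGAC, with GGACT or with GGAC in the central 100 bases, and the length of exons were not run, since no genome or exon annotation was used here, and GGAC was counted only in the few peaks over RefSeq windows. Unknown depth and 1 library of each kind limit every comparison of CCI with sham.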
